A study of Homo sapiens with 4 samples.

Results

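Noncoding transcripts of the zinc finger genes of chromosome 19 were examined in HepG2, as the labels name the cells, a liver cancer line long in use. The set holds every transcript of the deposited table whose GENCODE release 29 gene is protein coding, lies on chromosome 19 and is named ZNF followed by digits with an optional letter. It came to 359 of 106179 transcripts, from 153 of the 29585 genes that could be named. Release 29 has 246 such genes on chromosome 19, so 62.2% of them had a transcript in the table. RNA-seq of total RNA had been made from 2 libraries of wild-type cells and 2 of oxaliplatin-resistant cells. Oxaliplatin is a platinum drug that forms adducts on DNA. No dose, length of selection or clone is given in the sources used here, nor whether each library is its own culture. The p-values therefore measure only how far these libraries lie apart, and that spread may be technical.

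ZNF genes of this kind encode proteins with tandem C2H2 zinc fingers, short folds that hold a zinc ion and read DNA. Many also carry a KRAB domain, which binds the co-repressor TRIM28 (KAP1) and through it brings histone methylation and heterochromatin proteins to DNA, often to transposable elements. Chromosome 19 carries large clusters of them that arose by tandem duplication, so that neighbours resemble each other in sequence. Nearly all transcripts counted here are not the messengers of these proteins. Of the 359, 211 are classed as processed transcripts, which have no annotated reading frame, and 146 as retained introns, in which at least 1 intron is kept. The other 2, both of *ZNF283*, are classed as protein coding. Release 29 lists 1172 protein-coding transcripts for the same 246 genes. All 146 of its retained-intron transcripts and 211 of its 212 processed transcripts for these genes were in the table.

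The finger array itself can be read in some of these noncoding transcripts. Adjacent fingers are joined by a conserved linker, and its codons were searched for on the transcript strand of each reference sequence, with synonymous codons and lysine or arginine at the variable position allowed. The pattern at that position also let in the serine codons AGC and AGT. At least 1 linker was found in 35 of the 359 transcripts (9.75%), against 11.1% of 495 noncoding transcripts of ZNF genes on other chromosomes and 0.164% of 3042 transcripts of other coding genes on chromosome 19. Of these 35 transcripts, 26 were retained introns and 9 processed transcripts, in 32 genes. Successive linkers were 84 bases apart in 106 of 160 pairs (66.2%), the length of 1 finger with its linker. The first such unit is shown, as an example of the repeat, for 4 transcripts. They have the most linkers among those with at least 100 counts in every library. *ZNF554* was taken by identifier order from 3 transcripts with 5 linkers. Each runs from 1 linker to the end of the next, with the linkers in capitals.
ZNF235: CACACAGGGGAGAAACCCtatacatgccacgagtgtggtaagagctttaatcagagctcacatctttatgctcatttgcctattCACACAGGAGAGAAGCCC
ZNF383: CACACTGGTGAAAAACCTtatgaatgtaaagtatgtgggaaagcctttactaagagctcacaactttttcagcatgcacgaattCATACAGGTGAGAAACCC
ZNF558: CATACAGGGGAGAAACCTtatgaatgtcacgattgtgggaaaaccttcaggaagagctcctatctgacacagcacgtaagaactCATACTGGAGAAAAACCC
ZNF554: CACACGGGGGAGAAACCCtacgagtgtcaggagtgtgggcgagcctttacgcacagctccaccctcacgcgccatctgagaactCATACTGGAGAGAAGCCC
They stand at bases 2153 to 2254 of ENST00000587921 (*ZNF235*, 13 linkers), 1645 to 1746 of ENST00000586068 (*ZNF383*, 6 linkers), 1916 to 2017 of ENST00000597304 (*ZNF558*, 6 linkers) and 2528 to 2629 of ENST00000588534 (*ZNF554*, 5 linkers). Over 84 bases, the pairs were identical at 61.9% (*ZNF235* and *ZNF554*) to 72.6% (*ZNF383* and *ZNF558*) of positions. The first 18 of these bases are the linker that each unit had to match, so part of this identity follows from the search.

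How far reads could be told apart was read from the reference transcripts. For each member transcript, the share of its 31-base words that also occur in a transcript of another gene, on either strand, had a median of 6.92%. It was over 50% in 31 of the 359. The share that also occurs in protein-coding transcripts of the same gene had a median of 55.8%, and the share found in no other transcript had a median of 24.2%. Exons of 102 of the 359 transcripts overlap an exon of another gene, on the other strand in 51. Whether counting used the strand is not given in the sources used here, so reads inside the overlap of such pairs cannot be told apart. Transcripts with a linker had a median of 8.61% of words in other genes, and those without a linker 6.43%. Counts of single transcripts are estimates that divide such shared reads.

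The table held 38113398 and 34898860 counts in the wild-type libraries, against 43473826 and 44063444 in the resistant ones. The labelled cell type was checked on noncoding transcripts of hepatocyte genes. Of 15 such genes, 9 had a transcript in the table, and 7 of these were at 0 in all 4 libraries, among them *AFP*, *TTR*, *TF* and *SERPINA1*. The other 2 were *ALB*, with 8 counts in 1 library, and *APOA2*, with at most 4 in any. Of 10 markers of other cell types, 9 were in the table and 7 had counts. *VIM*, the vimentin gene of mesenchymal cells, led them at 131.7 ± 34.6 CPM (normalised read counts, scaled to library size) in wild type, 79.6 ± 5.04 with resistance (SD, n = 2 libraries). *ACTA2*, a smooth muscle actin gene, lay the other way, with 0 and 48 counts against 137 and 167, and the groups of neither gene overlapped. The summed CPM of the 9 was 109.8 and 161.2 in wild type, with 90.0 and 82.0 in the resistant pair. Of this, *VIM* alone made up 107.3 and 156.2 in wild type, with 83.2 and 76.0 in the resistant pair. *COL1A2* and *KRT5* were at 0 in all 4 libraries, and *PECAM1* and *VWF* had at most 3 counts in any. *PTPRC* had 27 counts in 1 resistant library only, *COL3A1* at most 16 in any and *COL1A1* 34 to 87. The hepatocyte list was thus at or near 0 in both groups, against the label, although the table holds almost no mRNAs. The part of either list in the results below was not tested.

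The members took a small and similar share of every library. They held 27925 and 27379 counts in the wild-type libraries, against 37904 and 39170 in the resistant ones, which is 0.0733% (95% Wilson interval 0.0724 to 0.0741%) and 0.0785% (0.0775 to 0.0794%) of the wild-type libraries and 0.0872% (0.0863 to 0.0881%) and 0.0889% (0.0880 to 0.0898%) of the resistant ones. Both resistant libraries lay above both wild-type libraries, with means of 0.0759% ± 0.00367 and 0.0880% ± 0.00121 (SD, n = 2), 1.16-fold apart. Such intervals cover counting error only. The ZNF genes of other chromosomes took 0.352% ± 0.0196 and 0.486% ± 0.0315, and the other coding genes of chromosome 19 took 2.59% ± 0.517 and 2.42% ± 0.114. With 2 libraries against 2, the smallest two-sided p of an exact permutation test is 0.33, so these shares were not tested.

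Counts were unevenly spread over the members. Of 153 genes, 51 had no count in any library, 16 had counts but did not pass the expression filter of the test, and 86 passed and were tested. In bulk RNA, fewer cells of a kind and less RNA per cell cannot be told apart. A gene sum, the sum over the noncoding transcripts of a gene, reached at least 100 counts for 45 and 40 members in the wild-type libraries and for 51 in each resistant one. This cutoff is on raw counts, and the resistant libraries held more counts in total. The median CPM of the tested members was 3.57 and 3.47 in wild type, with 4.11 and 4.15 in the resistant pair. For the tested ZNF genes of other chromosomes it was 9.20 and 9.29 against 7.29 and 7.52. *ZNF274* alone held 15.3% and 22.3% of the members' counts in wild type, with 20.7% and 15.1% in the resistant pair.

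The 8 members of highest mean were *ZNF274*, *ZNF558*, *ZNF544*, *ZNF507*, *ZNF383*, *ZNF561*, *ZNF146* and *ZNF160*. *ZNF274* encodes a KRAB protein that binds zinc finger genes themselves, near their 3′ ends, and recruits the histone methyltransferase SETDB1. Its GRCh38 position is 58183029 to 58213562 on the plus strand. It had 4265 and 6116 counts in the wild-type libraries, against 7858 and 5933 in the resistant ones. On the CPM scale, which corrects for library size, this was 184.4 ± 56.9 against 185.6 ± 33.2 (SD, n = 2). The groups overlapped, and the log2 fold change, resistant over wild type throughout, was 0.0092 ± 0.35 (SE). Its sign turned without wild-type replicate 1 (-0.27) and without resistant replicate 1 (-0.18). *ZNF146*, whose protein consists of zinc fingers alone, had 990 and 996 counts in the wild-type libraries, against 1222 and 1377 in the resistant ones, or 35.03 ± 2.20 and 35.1 ± 3.61 CPM. *ZNF507* had 2140 and 1162 counts against 1827 and 2615, and *ZNF160* had 912 and 1047 against 1344 and 1249. None of these 4 gene sums separated the groups. Per kilobase of transcript, *ZNF274* had the highest level (136.5 and 140.8 CPM per kb in wild type and resistant cells), followed by *ZNF544* (83.4 and 140.4). *ZNF146* and *ZNF561* came next on this scale, at 61.4 and 61.7 and at 44.5 and 78.2 CPM per kb. The long transcripts of *ZNF507* gave 10.9 and 11.2.

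The comparison of resistant with wild-type cells asked which gene sums differ. After adjustment for multiple testing no member passed: edgeR (quasi-likelihood, Benjamini-Hochberg adjusted over 13745 genes) called 0 of 86 (smallest adjusted p = 0.349), and 0.0% of all tested genes. At an unadjusted p under 0.05 it gave 7 of the 86 members (8.14%), where 8.67% of all tested genes reached that level. Of the 7, 6 had a higher mean in resistant cells (background 4.74%) and 1 a lower mean (background 3.93%). Without resistant replicate 1 the number higher was 1 and without resistant replicate 2 it was 2, and the number lower was 2 in either case. limma-voom called 0 members. DESeq2 called 4, all higher in resistant cells (*ZNF101*, *ZNF613*, *ZNF527* and *ZNF317*), where it called 4.61% of all genes. The groups did not overlap in 29 of the 86 members (33.7%), 18 higher and 11 lower in resistant cells, where the share of all tested genes was 43.0%. The fitted log2 fold change was above 0 in 47 members and below 0 in 39, with a median of 0.080 against 0.014 over all 13745 genes. Both shares were near or under their background. Among members counted in both libraries of a pair, the median absolute log2 difference was 0.47 within wild type and 0.68 within resistant cells. The median absolute fitted change between groups was 0.50 over all 86. These are unlike measures, since the first compares single libraries and the second compares groups of 2.

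In rank of p, the members that lay higher in resistant cells began with 3 genes that had no count in wild type. *ZNF101*, at GRCh38 chromosome 19, 19668796 to 19683509, plus strand, had 0 and 0 counts in the wild-type libraries, against 55 and 64 in the resistant ones, all on a retained-intron transcript. *ZNF613*, at 51927147 to 51948759, plus strand, had 0 and 0 against 76 and 42, all on processed transcripts. *ZNF350* encodes ZBRK1, a repressor that binds BRCA1, and lies at 51964343 to 51986856, minus strand. Its sum was 0 and 0 against 30 and 55 counts. Retained introns held 0 of these 30 counts and 51 of the 55, so the 2 resistant libraries counted mostly different transcripts. Both resistant libraries were thus above both wild-type libraries in the sums of all 3 genes, at low counts. A count of 0 allows up to 3 counts per library, or 0.0798 to 0.110 CPM. Against that limit the resistant means were 15.2-fold (*ZNF101*), 14.98-fold (*ZNF613*) and 10.9-fold (*ZNF350*) higher (edgeR adjusted p = 0.349, 0.370 and 0.383). Counting error of the resistant means themselves is left out of these ratios. Of all tested genes, 1.8% had no count in both wild-type libraries, as had 3 of the 86 members (3.49%). No tested member was at 0 in both resistant libraries (background 0.604%). Genes at 0 in wild type passed the expression filter through the resistant libraries alone. Among members that did not pass it, *ZNF525* had 0 and 0 against 10 and 30 counts, and *ZNF222* 0 and 0 against 33 and 2.

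The bases before the RefSeq start of these 3 genes are shown because they alone among the tested members were counted only in resistant cells, and because 2 of them are neighbours. The sequences are the 250 bases before the RefSeq start of each gene on GRCh38.p14, and capitals mark the longest run that *ZNF613* and *ZNF350* share. *ZNF101* covers chr19:19668589-19668838 on the plus strand, *ZNF613* chr19:51927222-51927471 on the plus strand and *ZNF350* chr19:51986841-51987090 on the minus strand. RefSeq and release 29 place the starts differently: the stretch of *ZNF613* lies wholly inside its release 29 gene, and those of *ZNF101* and *ZNF350* overlap the first bases of their genes.
ZNF101: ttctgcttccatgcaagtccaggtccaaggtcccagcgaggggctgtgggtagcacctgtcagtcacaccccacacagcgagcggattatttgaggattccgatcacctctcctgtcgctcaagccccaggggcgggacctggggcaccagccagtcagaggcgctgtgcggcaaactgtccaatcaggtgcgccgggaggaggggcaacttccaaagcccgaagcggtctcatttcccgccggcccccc
ZNF613: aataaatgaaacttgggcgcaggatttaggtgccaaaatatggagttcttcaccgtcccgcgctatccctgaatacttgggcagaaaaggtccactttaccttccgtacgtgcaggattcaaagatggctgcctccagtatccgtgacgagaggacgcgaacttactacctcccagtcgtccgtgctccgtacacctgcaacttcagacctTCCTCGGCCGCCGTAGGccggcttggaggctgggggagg
ZNF350: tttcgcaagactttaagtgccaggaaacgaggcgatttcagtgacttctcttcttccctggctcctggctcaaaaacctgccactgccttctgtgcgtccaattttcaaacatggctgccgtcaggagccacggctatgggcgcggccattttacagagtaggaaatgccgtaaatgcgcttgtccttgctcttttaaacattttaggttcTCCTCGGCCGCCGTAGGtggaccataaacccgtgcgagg
The run is 17 bases long and begins 39 bases before the start in both genes. On either strand it occurs in 2 of the 35116 promoters of the table, these 2. The longest run that *ZNF101* shares with either is 8 bases. A match is a description and not a site, and this pair was chosen after its counts were seen.

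Of the members, 135 had a promoter in the RefSeq table. On either strand of the 250 bases, the GC box GGGCGG stood in 58.5% of them, against 42.6% of all 35116 promoters. The core of the ETS factor motif, CCGGAAG, stood in 30.4% of the members and 8.52% of all. TATAAA stood in 2.22% and 10.7%. The median number of CG dinucleotides was 15 in the members and 11 in all promoters. A single promoter was taken for each member gene, while the 35116 were not reduced per gene or limited to coding genes. ZNF genes of other chromosomes and other coding genes of chromosome 19 were not compared. Whether these shares are particular to the members is therefore not known. Occurrences of different motifs may overlap, and these shares are descriptions of the reference only.

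**Figure D1:**
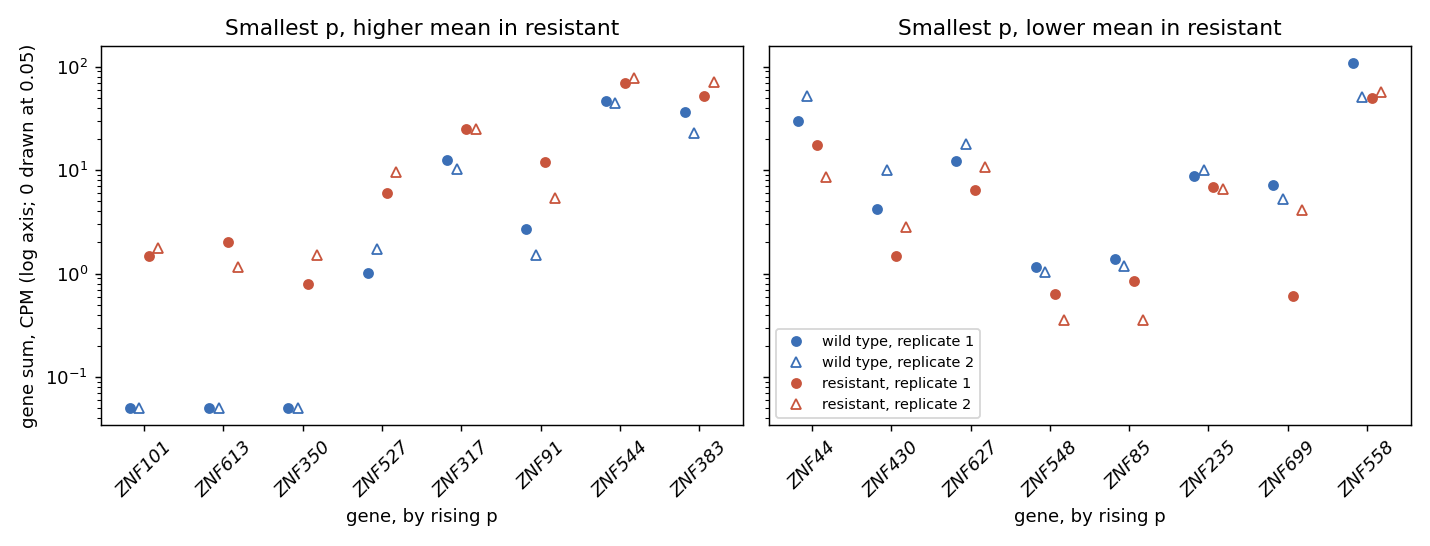
Gene sums in CPM on a log axis in each of the 4 libraries, for the 8 tested members of smallest p with a higher (left) and the 8 with a lower mean (right) in resistant cells. Points are single libraries, and a count of 0 is drawn at 0.05. *ZNF101*, *ZNF613* and *ZNF350* had no count in wild type, and the libraries of *ZNF558* overlap.

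The next members with a higher mean were counted in both groups. *ZNF527* had 30 and 47 counts in the wild-type libraries, against 225 and 351 in the resistant ones, 1.37 ± 0.504 and 7.79 ± 2.55 CPM (SD, n = 2). The ratio was 5.68-fold (fitted log2 2.5 ± 0.57, SE; edgeR adjusted p = 0.393), and the groups did not overlap. All of its counts were on ENST00000589615, a processed transcript. *ZNF317* had 372 and 280 counts against 932 and 919, 2.18-fold higher at 25.0 ± 0.221 CPM in resistant cells (edgeR adjusted p = 0.475). Its 2 retained-intron transcripts had different patterns: ENST00000419608 had 85 and 225 counts in the wild-type libraries, against 730 and 716 in the resistant ones, while ENST00000590152, which holds 7 finger linkers, had 287 and 55 against 202 and 203. *ZNF91* encodes a KRAB protein that represses SVA retrotransposons. It had 80 and 41 counts against 455 and 198, 4.16-fold higher with no overlap (edgeR adjusted p = 0.538). Its fitted log2 was 2.05, and 1.36 without resistant replicate 1 and 0.37 with retained introns alone.

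*ZNF544* had 1377 and 1204 counts in the wild-type libraries, against 2633 and 2860 in the resistant ones, with a fitted log2 of 0.71 ± 0.25 (SE; adjusted p = 0.585 in edgeR). Of the words of its counted transcripts, weighted by counts, 63.2% occur in another gene, mainly the overlapping *AC020915.5*, so its reads are uncertain. *ZNF383* had 1067 and 627 counts against 1968 and 2597 (edgeR adjusted p = 0.597). Its main transcript, ENST00000586068, holds the finger unit printed above and had 773 and 577 counts against 1599 and 2219. *ZNF561*, the sixth by mean, had 696 and 806 counts against 1550 and 1932. In all 3 genes both resistant libraries were above both wild-type libraries, and none passed edgeR, limma-voom or DESeq2.

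In the other direction *ZNF44*, at GRCh38 chromosome 19, 12224686 to 12294887, minus strand, had the smallest p. It had 874 and 1429 counts in the wild-type libraries, against 664 and 313 in the resistant ones, 41.0 ± 16.2 and 13.1 ± 6.45 CPM (SD, n = 2), 3.13-fold lower. The groups did not overlap (log2 fold change -1.65 ± 0.57, SE; edgeR adjusted p = 0.573). The value was -2.26 without resistant replicate 1 and -1.17 without wild-type replicate 2. Nearly all counts were on ENST00000597563, a processed transcript that shares 25.2% of its words with the overlapping *AC012618.3*. *ZNF430* lay at 7.15 ± 4.13 and 2.14 ± 0.955 CPM, and *ZNF627* had 360 and 482 counts against 244 and 389. On the CPM scale the groups of neither gene overlapped. *ZNF548* had 34 and 28 against 24 and 13 counts and *ZNF85* 41 and 32 against 32 and 13, with no overlap in CPM.

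*ZNF235*, whose transcript holds the most finger linkers, had 259 and 270 counts in the wild-type libraries, against 258 and 239 in the resistant ones. Scaled to library size this was 9.34 ± 0.820 and 6.70 ± 0.237 CPM (SD, n = 2), 1.39-fold lower with no overlap (edgeR adjusted p = 0.772). *ZNF699* had 211 and 143 counts against 23 and 151, also with no overlap in CPM. *ZNF558* had 3193 and 1383 counts against 1888 and 2058, and its groups overlapped. Its log2 fold change was -0.58 ± 0.47 (SE) and came to 0.07 without wild-type replicate 1. Adjusted p in edgeR lay between 0.573 and 0.800 for these 8 genes.

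Members whose proteins have a described role were taken from a list of 12 names, chosen for the role. Of these, 11 were in the table, 9 had counts and 8 were tested. All 8 had a fitted log2 fold change above 0, where 50.8% of all tested genes did, but that of *ZNF274* was 0.0092 and that of *ZNF146* 0.0018, which lay below 0 with RLE scaling, without the filter, in DESeq2 and in limma-voom. None passed the test (edgeR with adjustment over all genes), and 2 of the 8 had an unadjusted p under 0.05, *ZNF91* and *ZNF350*, given above, where 8.67% of all tested genes did. *ZNF331*, an imprinted gene, had 428 and 233 counts in the wild-type libraries, against 749 and 791 in the resistant ones, 1.80-fold higher on the CPM scale with no overlap (edgeR adjusted p = 0.681). Its fitted log2 was 0.85, and 0.05 with retained introns alone. *ZNF224*, whose protein is a cofactor of WT1, had 271 and 211 against 481 and 459, and *ZNF675*, which encodes an inhibitor of TRAF6 signalling, 349 and 259 against 572 and 464. Both also did not overlap, at adjusted p of 0.718 and 0.818 in edgeR.

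*ZNF432*, whose protein takes part in DNA repair, had 348 and 218 counts in the wild-type libraries, against 0 and 932 in the resistant ones. The 2 resistant libraries lay on either side of wild type, 72.7% of the words of its transcript occur in other genes, and without resistant replicate 2 the log2 fold change went from 0.36 to -11.3. *ZNF382*, which is silenced by methylation in several tumours, had 18 counts in 1 resistant library. *ZNF93*, which represses L1 elements, and *ZNF671*, another gene methylated in tumours, had no count in any library. A library at 0 allows up to 3 counts.

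Some members differed widely between libraries of the same group. In wild type 3 members had 0 counts in 1 library and over 100 in the other (*ZNF490*, *ZNF429* and *ZNF780B*). In resistant cells there were 6 (*ZNF441*, *ZNF709*, *ZNF253*, *ZNF567*, *ZNF573* and *ZNF432*). The genes were named after their values were seen. *ZNF490*, for example, had 0 and 708 counts in the wild-type libraries, against 249 and 256 in the resistant ones. At the level of transcripts the numbers were 12 and 13. Such cases were not counted over all genes or transcripts, so whether they are usual for the table is not known.

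Position along the chromosome was described with clusters of all 246 genes, where neighbours that start at most 1 Mb apart on the same arm belong together. This gave 16 clusters, numbered from the end of the short arm, and 15 of them held a member. The members were 45 genes on the short arm and 108 on the long arm. Cluster 16, at 55476332 to 58481230 near the end of the long arm, had the highest summed level, 254.5 and 317.6 CPM in wild type, with 336.7 and 302.3 in the resistant pair, led by *ZNF274*. Cluster 2, at 7069444 to 9793180 and led by *ZNF558*, had 175.0 and 118.1 against 136.6 and 161.0 CPM. Cluster 15, at 51571298 to 53580269 and led by *ZNF160*, held both *ZNF613* and *ZNF350* and had 113.1 and 93.6 against 103.4 and 136.0 CPM. The groups overlapped in all 3.

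Cluster 3 and cluster 9 stood on opposite sides. In cluster 3, at 11483427 to 12640098 on the short arm, 7 of 9 tested members had a fitted log2 below 0, and the summed level was 73.1 and 136.8 CPM in wild type, with 65.3 and 48.6 in the resistant pair. Without *ZNF44*, its leading member, the sums were 43.6 and 84.3 against 47.6 and 40.1, and the groups overlapped. In cluster 9, at 36182060 to 37817300 on the long arm, 9 of 11 tested members had a fitted log2 above 0, among them *ZNF527*, *ZNF565*, *ZNF529* and, at 0.0018, *ZNF146*. The summed level was 99.0 and 84.1 CPM in wild type, with 120.9 and 150.4 in the resistant pair, 1.48-fold higher. Without *ZNF383* the sums were 63.0 and 61.1 against 68.5 and 79.4, still with no overlap. Of these 20 members, 2 had an unadjusted p under 0.05 in edgeR, *ZNF44* and *ZNF527*, where 8.67% of all tested genes did, and none passed adjustment. Whether the clusters differ was not tested. The 2 were singled out after their values were seen.

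**Figure D2:**
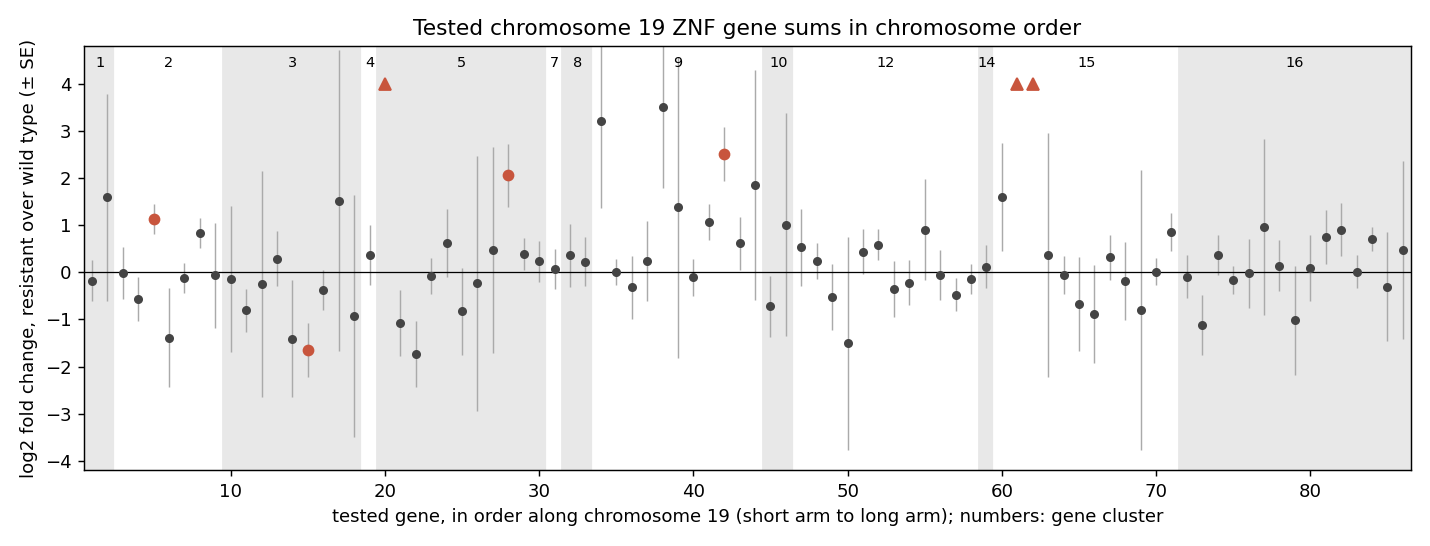
Log2 fold change, resistant over wild type, of the 86 tested gene sums in their order along chromosome 19, with the standard error of the fit as bars. Shading and numbers mark the gene clusters, red marks the 7 members with an unadjusted p under 0.05, and triangles stand for the 3 genes at 0 in wild type, whose fitted value is no bound and lies above the axis. Points lie on both sides of 0 in most clusters, with 9 of 11 above 0 in cluster 9 and 7 of 9 below 0 in cluster 3.

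**Figure D3:**
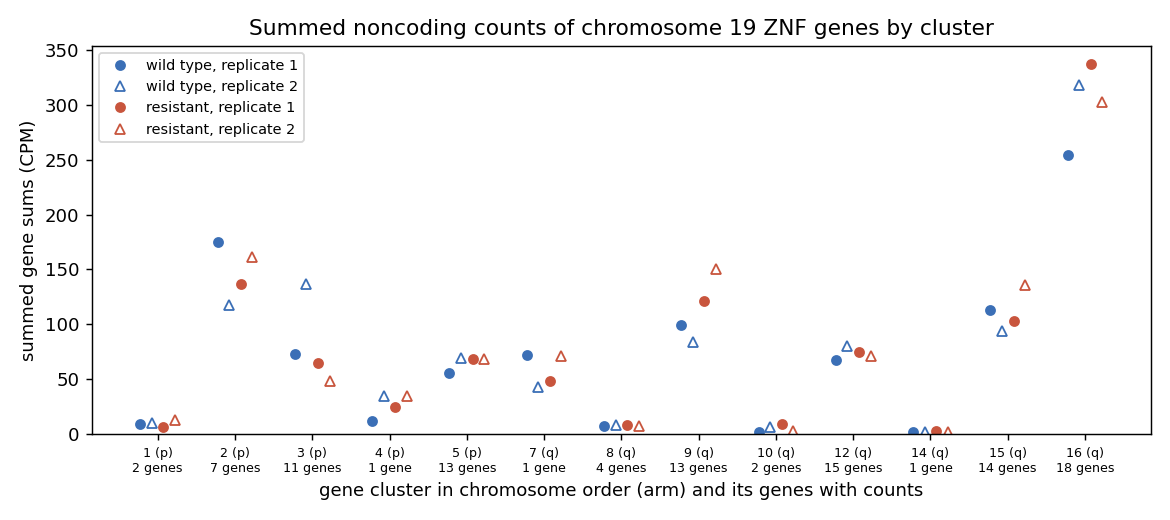
Summed gene sums in CPM per cluster and library, for the clusters with counts, in chromosome order, with the arm in brackets. Points are single libraries. Cluster 16 is the highest in every library, and cluster 9 is higher in both resistant libraries while cluster 3 is lower.

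The other clusters differed little or held few counts. Cluster 5, led by *ZNF714*, had 13 members with counts and summed levels of 56.0 and 69.1 against 68.9 and 68.3 CPM. *ZNF714* itself had 504 and 759 counts against 767 and 811. Cluster 12, led by *ZNF180* (436 and 433 counts against 462 and 562), had 67.3 and 80.6 against 74.7 and 71.1 CPM. *ZNF333*, the only gene of cluster 4, had 350 and 947 counts against 949 and 1274. *ZNF554* in cluster 1 had 285 and 246 against 233 and 377 counts, *ZNF181* in cluster 8 had 78 and 208 against 274 and 216, and *ZNF780B* in cluster 10 had 0 and 141 against 296 and 93. *ZNF473*, a gene of histone pre-mRNA processing and the only one of cluster 14, had 71 and 70 against 116 and 84. The groups overlapped on the CPM scale in each of these genes and clusters.

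Retained introns held about the same share of the members' counts in every library. It was 66.4% (95% Wilson interval 65.9 to 67.0%) and 64.7% (64.1 to 65.3%) in wild type and 68.0% (67.5 to 68.4%) and 64.8% (64.3 to 65.2%) in resistant cells. The means were 65.6% ± 1.24 and 66.4% ± 2.26 (SD, n = 2), and the groups overlapped. ZNF genes of other chromosomes had 63.2% ± 3.15 and 65.7% ± 0.285, and other coding genes of chromosome 19 had 85.9% ± 1.69 and 86.0% ± 0.677. Retained introns of the members held 18553 and 17711 counts against 25762 and 25371, and processed transcripts 9313 and 9590 against 11922 and 13662. Of 87 tested retained-intron transcripts 45 had a fitted log2 above 0, with a median of 0.052, and of 57 processed transcripts 33 had, with a median of 0.24.

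Single genes varied more than the sum. At least 100 counts in every library were found for 30 members. Of these, 8 had retained introns only, 6 had none and 16 had both classes. Among the 16, the share was higher in resistant cells in 8 and lower in 8. The groups did not overlap in 8 of them (50%), 3 higher and 5 lower, where 32.5% of 3773 coding genes with both classes showed no overlap. *ZNF561* had a share of 54.0% and 61.4% in wild type, with 72.3% and 76.6% in the resistant pair. *ZNF566* had 69.5% and 31.2% against 87.7% and 85.1%. In *ZNF160* the share was 96.7% and 64.6% in wild type, and both resistant libraries were at 100%. In *ZNF283* the resistant libraries had the lower share, with 76.3% and 74.4% against 55.2% and 63.1%. *ZNF333* (53.4% and 87.2% against 92.9% and 83.0%) and *ZNF444* (99.5% and 100% against 54.2% and 99.3%) each had 1 library far from the other 3. *ZNF444* is a gene of the SCAN zinc finger family. The number of libraries limits the precision of these shares, and they were not tested.

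**Figure D4:**
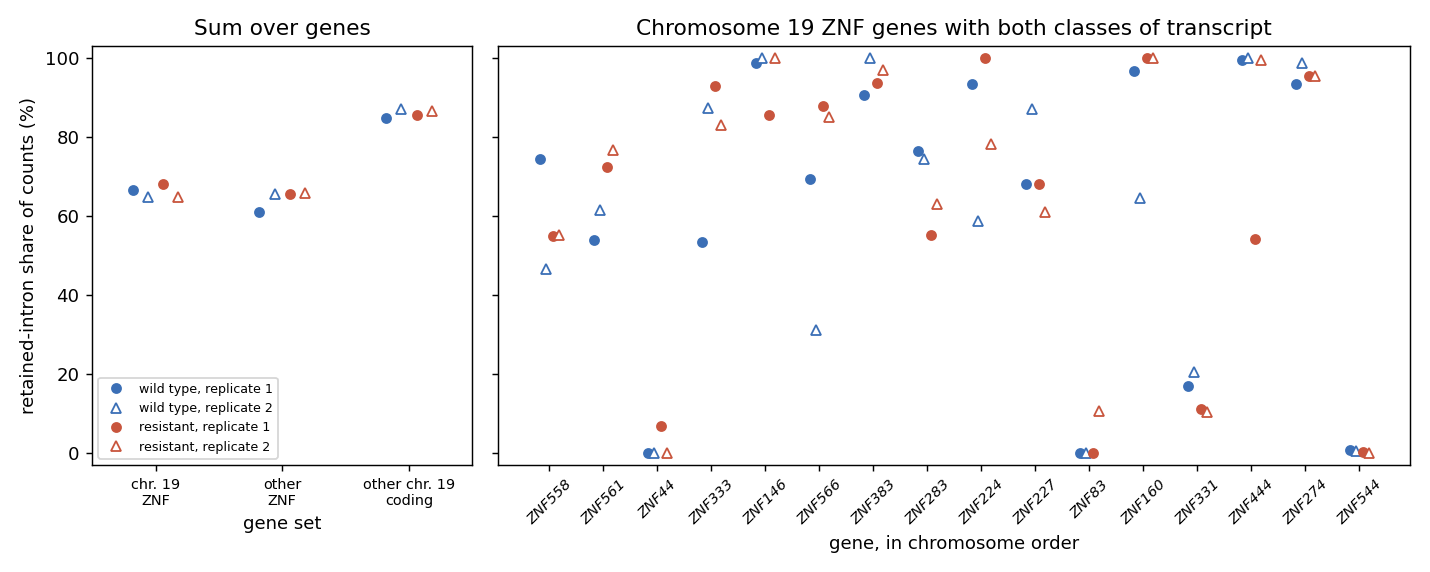
Share of counts on retained-intron transcripts, in percent, for each library: left, summed over the chromosome 19 ZNF genes, the ZNF genes of other chromosomes and the other coding genes of chromosome 19; right, for the 16 members with both classes of transcript and at least 100 counts in every library. The summed share of the members lies between 64.7% and 68.0%, while single genes such as *ZNF566* range from 31.2% to 87.7%.

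Single transcripts were tested in the same way over the whole table. Of 359 member transcripts 196 had counts and 145 passed the filter. edgeR called 0 of the 145 (smallest adjusted p = 0.329) and 0.0% of all 42393 tested transcripts. At an unadjusted p under 0.05 it gave 10 (6.90%), where 7.74% of all tested transcripts reached that level, of which 7 lay higher (background 4.56%) and 3 lower (background 3.18%) with resistance. The number higher was 2 without resistant replicate 1 and 11 without wild-type replicate 1. The number lower was 5 without either of the resistant libraries and 1 without wild-type replicate 2. DESeq2 called 6 (background 5.33%) and limma-voom 0. The groups did not overlap in 49 (33.8%), against 40.3% of all. In wild type 4 tested member transcripts were at 0 in both libraries (2.76%, background 2.53%), and in resistant cells 2 were (1.38%, background 1.14%).

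Some of these transcripts belong to genes whose sum lay near 0 or on the other side. ENST00000619307 is a retained-intron transcript of *ZNF274* with 3 exons at GRCh38 chromosome 19, 58183109 to 58210709, plus strand. It had 0 and 0 counts in the wild-type libraries, against 229 and 225 in the resistant ones (edgeR adjusted p = 0.329). It lay 58.4-fold higher against the limit of 3 counts per library. It has no word of its own: 0% of its 31-base words are absent from all other transcripts. The *ZNF274* sum is held mainly by ENST00000615675, with 2298 and 3568 counts in the wild-type libraries, against 4944 and 2616 in the resistant ones. ENST00000495503, a processed transcript of *ZNF561*, had 57 and 41 counts against 0 and 0, 21.0-fold lower against the same limit. The gene's sum had a log2 fold change of 0.82. ENST00000596388 of *ZNF160* had 30 and 30 against 0 and 0 counts, 13.0-fold lower against that limit, while the fitted log2 of the gene sum was 0.012. These ratios leave out the counting error of the mean on the counted side.

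For *ZNF566*, transcripts of the 2 classes lay on opposite sides. The processed transcript ENST00000472909 had 139 and 97 counts in the wild-type libraries, against 33 and 51 in the resistant ones, and the retained-intron transcript ENST00000494354 had 40 and 43 against 132 and 200. Neither pair overlapped, neither passed edgeR (adjusted p = 0.536 and 0.591), and the gene sum was 455 and 141 against 269 and 343. ENST00000587220 of *ZNF540* had 0 and 0 against 19 and 14 counts, and ENST00000594159 of *ZNF814* 3 and 4 against 18 and 45. For *ZNF101*, *ZNF613*, *ZNF527*, *ZNF44*, *ZNF430* and *ZNF548*, the transcript of smallest p held all or most of the gene's counts summed over the libraries. Of the 35 transcripts with a finger linker, 28 had counts and 21 were tested. Of these 21, 8 had a fitted log2 above 0, as had 51.1% of all tested transcripts, and 1 had an unadjusted p under 0.05, as had 7.74% of all.

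The co-repressor genes through which KRAB proteins act were described from a list of 22 names, of which 18 were found in the table by name and tested. *TASOR* was not found, but it was not looked up under its older name *FAM208A*, so it may have been missed. Their noncoding transcripts showed no shared direction, with 8 fitted log2 values above 0 and 10 below and a median of -0.085, against 0.014 over all genes. None passed edgeR, and 2 of the 18 had an unadjusted p under 0.05, where 8.67% of all tested genes did. *TRIM28*, the co-repressor bound by the KRAB domain, had 1232 and 1077 counts in the wild-type libraries, against 1715 and 1470 in the resistant ones, 40.6 ± 1.48 and 42.9 ± 3.87 CPM (SD, n = 2). The highest means belonged to *ATRX*, a chromatin remodeller gene, at 666.6 ± 23.9 and 819.6 ± 41.5 CPM, to *ATF7IP*, a SETDB1 partner, to *HDAC2*, a histone deacetylase gene at 291.7 ± 59.4 and 358.3 ± 53.7 CPM, and to *DNMT1*, the maintenance DNA methyltransferase gene, at 388.4 ± 188.7 and 217.3 ± 6.35 CPM. *ATF7IP* had 30979 and 698 counts in the wild-type libraries, against 2007 and 29523 in the resistant ones, so that 1 library of each group held nearly all of its counts.

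The 2 co-repressor genes with an unadjusted p under 0.05 were *DNMT3A* and *SMARCAD1*, and both passed DESeq2, which called 4.61% of all genes. *DNMT3A*, a de novo DNA methyltransferase gene, had 422 and 215 counts in the wild-type libraries, against 45 and 59 in the resistant ones, with a fitted log2 of -2.98 ± 0.54 (SE; edgeR adjusted p = 0.362, DESeq2 adjusted p = 0.000397). *SMARCAD1*, a remodeller gene, had 455 and 354 against 1166 and 1172 counts, with a fitted log2 of 1.15 ± 0.30 (edgeR adjusted p = 0.445, DESeq2 adjusted p = 0.0185). The groups did not overlap in either gene, nor in 4 of the 18 in all, where the share of all tested genes was 43.0%. *DNMT3A*, *SMARCAD1* and *TRIM28* were named after their values were seen.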

How the data were processed

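The authors made, with tools not named in the sources used here, estimated counts of each transcript in 4 libraries (2 wild type, 2 resistant) and deposited them as whole numbers in 1 table. The unit was read from the values. Per the submitters' processing notes the build was mm9, of mouse, whereas the identifiers are human. GENCODE release 29 (GRCh38) named 84072 of the 106179 transcripts, and counts were summed per gene. Gene sums and transcripts of the whole table were tested with edgeR 4.0.16 (quasi-likelihood, TMM scaling, minimum count 10, R 4.3.3), two-sided, with Benjamini-Hochberg adjustment over all tested features and a threshold of 0.05. CPM is relative to the tested features after TMM. Alternatives were DESeq2 1.42.0, limma-voom 3.58.1, RLE scaling, no filter, a replicate block, retained introns alone and leaving out each library. The scripts were tested on simulated data. Words of 31 bases and finger linkers were counted in release 29 transcripts; promoters came from RefSeq on GRCh38.p14. Tables were handled in pandas 2.3.3 (Python 3.11.15), intervals in SciPy 1.17.1.

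Members, lists, clusters and alternatives were chosen with earlier results of these data known. Named genes are the 8 tested members of smallest p in each direction, the 8 of highest mean, the members with a described role, the highest member of each cluster, the 6 with the largest difference in retained-intron share (at least 100 counts in every library), the 6 transcripts of smallest p in each direction and the 4 co-repressor genes of highest mean.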

Additional observations from a re-analysis of the deposited data

How the results depend on the processing

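The 2 libraries per group and low counts limit these comparisons: no member gene or transcript passed edgeR or limma-voom under any setting tried. DESeq2 called 4 genes and 6 transcripts. At an unadjusted p under 0.05, 6 genes were higher and 1 lower. The lower number was 2 in DESeq2 and 0 with retained introns alone, and leaving out 1 library gave 1 to 7 higher and 1 to 2 lower genes. For transcripts, 7 higher and 3 lower became 11 higher in DESeq2, 2 higher and 1 lower with the replicate block, and 2 to 11 higher and 1 to 5 lower with 1 library left out, where the lone library is assumed to vary like the other group. Deviations of libraries with the same replicate number had a correlation of -0.019 over 13745 genes. With 2 libraries per group this cannot settle whether they were paired. With the replicate block 4 genes were higher and 1 lower. The difference in retained-intron share was 0.81 percentage points, -0.79 to 2.403 with 1 library left out. It was 7.33 between the group means of each library's median over the 30 members with at least 100 counts, whereas the median of the differences per gene was -0.26 over the 16 with both classes. The log2 ratio of the members' share of the library was 0.22, and 0.14 with the counts of coding genes as the total. A gap of 0.5 Mb gave 20 clusters in place of 16. The summed level of cluster 9 had a log2 ratio of 0.56, and 0.25 without *ZNF383*, chosen after seeing the data. Among named genes, 470 of 519 values of 56 genes and transcripts kept their direction and their side of the threshold, and 36 turned in sign. *ZNF146* lay at -0.0050 with RLE scaling and in DESeq2, -0.0018 without the filter, -0.00061 in limma-voom, -0.00066 with the replicate block and -0.12 with retained introns alone. With retained introns alone *ZNF274* lay at -0.038, *ZNF283* at -0.15 and *ZNF566* at 0.18. In limma-voom and with the replicate block *ZNF432* lay at -4.15 and -3.10 and *ATF7IP* at 0.31 and 0.34. With 1 library left out, log2 ran from -0.10 to 0.11 for *ZNF146*, -0.14 to 0.18 for *ZNF160*, -0.31 to 0.0051 for *ZNF180*, -0.21 to 1.32 for *ZNF181*, -0.27 to 0.36 for *ZNF274*, -0.21 to 1.34 for *ZNF333*, -11.3 to 1.37 for *ZNF432*, -0.45 to 0.21 for *ZNF444*, -0.11 to 0.32 for *ZNF473*, -0.27 to 0.49 for *ZNF507*, -0.58 to 0.14 for *ZNF554*, -1.02 to 0.069 for *ZNF558*, -0.90 to 0.68 for *ZNF566*, -0.39 to 0.32 for *ZNF714*, -0.023 to 10.5 for *ZNF780B*, -3.32 to 4.07 for *ATF7IP* and -0.014 to 0.18 for *TRIM28*. The causes were not tested.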
